A study of Mus musculus with 28 samples.

Results

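The 74 genes described here carry the symbols of mitochondrial ribosomal proteins and were measured in the amygdala of mice that drank water or alcohol. They were chosen by symbol. Every gene listed in both deposited count tables whose symbol is Mrpl or Mrps followed by a number was taken, pseudogenes were left out, and a mean of at least 10 estimated counts over all mice was required. Of 78 candidate genes, 4 were listed in the table of the second batch alone, and no candidate fell under the count minimum. The 74 genes (45 with an *Mrpl* and 29 with an *Mrps* symbol) stood among 16266 genes tested. All 28 animals were adult female C57BL6/J mice from 1 inbred strain, and 1 RNA library was made per mouse from micropunches of both amygdalae, taken on day 29. Water mice (n = 10) had no access to alcohol. Acute Drinking mice (n = 9) had a single access to 20% alcohol, on day 28 after water alone, and Chronic Drinking mice (n = 9) had access to 20% alcohol every other day for a month, which made 14 access days. The animals formed 2 batches, of 4 Water, 4 Acute and 3 Chronic mice in the first and 6 Water, 5 Acute and 6 Chronic mice in the second, and within a group the mice are called by their label numbers (40 to 43, 33 to 36 and 37 to 39 in the first batch, from 1 upwards in the second).

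Mitochondria keep their own ribosomes, which translate the few messenger RNAs of the mitochondrial genome into core subunits of the respiratory chain and of ATP synthase. The ribosomal RNAs of these ribosomes come from mitochondrial DNA, whereas every protein is encoded in the nucleus, made in the cytosol and imported. Some of the proteins have bacterial relatives and line the decoding site, the peptidyl transferase centre or the exit tunnel, and others are found in mitochondria alone. *Mrpl* and *Mrps* stand for large and small subunit, although the proteins of *Mrps30* and *Mrps18a* lie in the large subunit despite their symbols.

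The genes were spread over the genome, with 11 of them on chromosome 11 and 8 on chromosome 17. For 17 of the 74 (23%), a protein-coding gene on the other strand started within 1000 bases upstream, against 1325 of 14344 protein-coding genes tested (9.24%). Such head-to-head neighbours included *Sars2*, the mitochondrial seryl-tRNA synthetase gene, whose start lay 172 bases from that of *Mrps12*. Promoter sequences (RefSeq, GRCm38.p6, 250 bases before to 50 bases after the start) could be matched for 65 of the 74 genes and for 12012 of the genes tested. The letters GCGCANGCG, a core of the site bound by NRF1, a regulator of nuclear genes for mitochondrial proteins, stood on either strand in 16 of the 65 promoters (24.6%), in 12.4% of the promoters of tested genes and in 6.25% of all 32851 promoters. The ETS core CCGGAAG stood in 23 (35.4%), against 16.2% and 8.86%. The YY1 core AANATGGCG stood in 11 (16.9%), against 4.69% and 2.38%. At least 1 of these 3 words was found in 40 of the 65 promoters (61.5%) and in 29% of those of the tested genes. The SP1 word GGGCGG was found in 32 (49.2%, against 61.8% of tested genes), CCAAT in 26 (40%, against 38.3%), the E-box CACGTG in 5 (7.69%, against 9.71%) and TATAAA in 3 (4.62%, against 7.51%). Median GC content of these promoters was 58.3%, against 60.7% for the tested genes. These counts describe letters in a window and no binding was measured.

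The stretches from 120 bases before the start to 20 bases from it onwards are printed for 5 genes, *Mrps12*, *Mrpl10* and *Mrpl30*, to which the comparisons below return, and *Mrps26* and *Mrps18a*, which are among the 5 genes that hold at least 2 of the 3 words within the stretch. They lie at chr7:28741802-28741941 on the minus strand (*Mrps12*), and on the plus strand at chr11:97041462-97041601 (*Mrpl10*), chr1:37890357-37890496 (*Mrpl30*), chr2:130563637-130563776 (*Mrps26*) and chr17:46110884-46111023 (*Mrps18a*). Sequences read 5′ to 3′ on the gene's strand, with the matched words in capitals.
Mrps12: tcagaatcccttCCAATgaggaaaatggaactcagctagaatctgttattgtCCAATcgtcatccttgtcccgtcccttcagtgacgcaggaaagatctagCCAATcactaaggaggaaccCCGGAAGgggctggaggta
Mrpl10: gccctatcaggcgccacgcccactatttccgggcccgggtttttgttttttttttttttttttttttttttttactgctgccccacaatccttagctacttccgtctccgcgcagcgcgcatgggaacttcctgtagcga
Mrpl30: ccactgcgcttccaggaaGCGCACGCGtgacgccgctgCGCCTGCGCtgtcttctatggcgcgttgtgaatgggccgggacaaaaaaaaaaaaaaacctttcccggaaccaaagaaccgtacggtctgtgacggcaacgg
Mrps26: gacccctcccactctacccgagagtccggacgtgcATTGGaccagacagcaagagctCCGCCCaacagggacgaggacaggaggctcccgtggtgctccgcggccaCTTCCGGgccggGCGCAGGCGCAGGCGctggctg
Mrps18a: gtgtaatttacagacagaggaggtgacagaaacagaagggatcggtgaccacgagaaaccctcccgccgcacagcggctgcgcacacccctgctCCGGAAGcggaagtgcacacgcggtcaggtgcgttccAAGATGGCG
The capitals mark CCAAT at 3 places and the ETS word in *Mrps12*, NRF1 words at 2 places in *Mrpl30*, CCAAT, SP1, ETS and overlapping NRF1 words in *Mrps26*, and the ETS and YY1 words in *Mrps18a*. The stretch of *Mrpl10* held none of the 7 words searched.

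Library depth was even, with 20004380 to 22474159 estimated counts per Water mouse, 20117248 to 22548961 per Acute mouse and 20135215 to 22569562 per Chronic mouse. Levels are given as CPM, a gene's count relative to its library total on one common scale, with library totals normalized by the trimmed mean of M-values (TMM). The tissue label was checked against markers fixed for the amygdala and its neighbours. Summed CPM of 6 central amygdala genes lay between 340 and 435 in Water, 381 and 473 in Acute and 339 and 452 in Chronic mice. Summed choroid plexus markers ran from 25.1 to 4010, 14.7 to 3560 and 12.4 to 4300 CPM in the same order, and striatal markers from 492 to 1898, 915 to 1890 and 653 to 1703. Choroid plexus genes were lower in the second batch by log2 differences of -1.62 (*Clic6*) to -2.09 (*Kcne2*), and within each batch and group their sum still varied. Summed oligodendrocyte markers ran from 1276 to 3277, 1662 to 3295 and 1854 to 3180 CPM, but *Mbp* alone differed by 4.02 log2 units between the batches, and the 8 other markers ran from 1201 to 1919, 1314 to 2773 and 1234 to 2216. No gene of the marker lists was at 0 in every mouse. The part of these cell types in the results below was not tested.

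Mean counts per mouse over both batches ran from 81.0 for *Mrps28* to 1278 for *Mrps25*, with a median of 439, although *Mrpl28* had nearly all of its counts in the second batch. Levels were compared between genes as CPM divided by transcript length. In Water mice (n = 10), the highest levels per kilobase were those of *Mrpl42* at 55.3 ± 4.34 CPM per kilobase (mean ± SD), *Mrpl20* at 50.2 ± 3.33, *Mrps18a* at 43.8 ± 4.09, *Mrpl41* at 40.8 ± 3.42 and *Mrps21* at 39.6 ± 3.01. *Mrpl20* and *Mrps21* belong to the bacterial-type proteins, while *Mrpl42* and *Mrpl41* encode proteins particular to mitochondria. At the lower end stood *Mrps35* at 3.01 ± 0.234, *Mrpl47* at 3.65 ± 0.239, *Mrps16* at 4.38 ± 0.447, and *Mrpl19* and *Mrps28*, both at 4.83 (SD 0.347 and 1.21). The highest and the lowest mean thus lay more than 10-fold apart in CPM per kilobase, and the deposited counts do not show which transcripts of a gene were used.

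**Figure D1:**
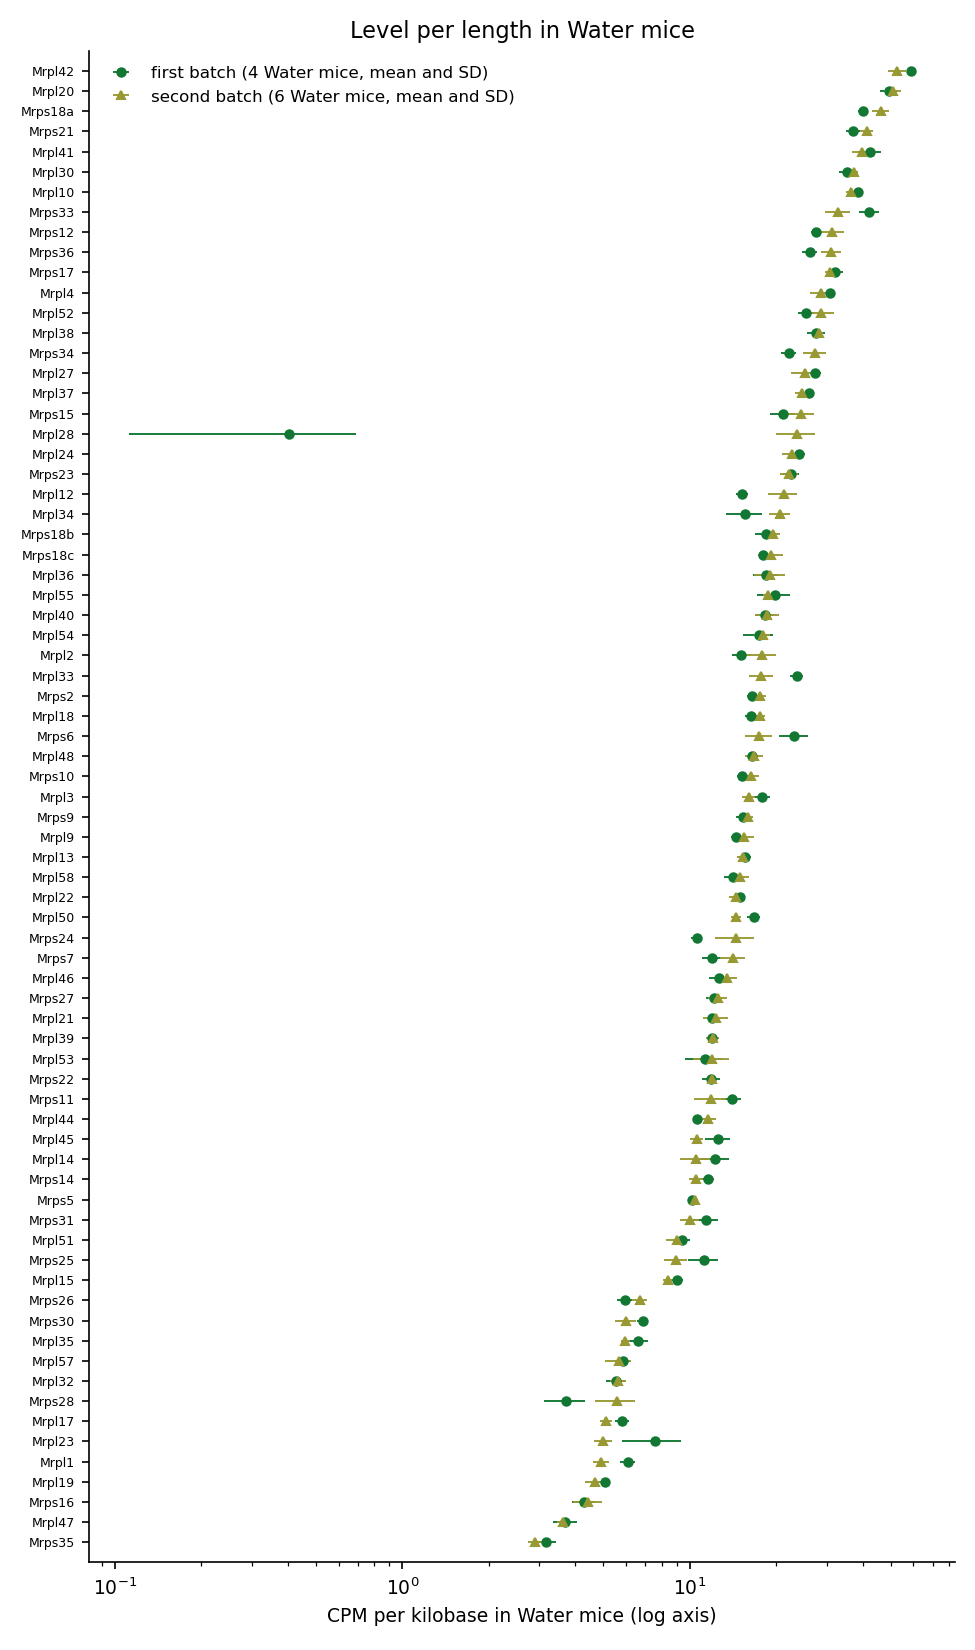
Mean level of each of the 74 genes in CPM per kilobase (log axis) in the Water mice of the first batch (circles, n = 4) and of the second (triangles, n = 6), with bars for the SD, ordered by the level in the second batch. Differences between the batches are small beside the range of levels for most genes, from *Mrps35* at the bottom to *Mrpl42* at the top, and *Mrpl28* stands alone at 0.402 CPM per kilobase in the first batch against 23.6 in the second.

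Within groups, most of these genes varied little. With the mean of each group and batch removed, the SD of log2 CPM was smallest for *Mrps5* (0.0498), *Mrps17* (0.0574) and *Mrps2* (0.0586), all bacterial-type small subunit genes. It was largest for *Mrpl28* (0.474), *Mrpl23* (0.358) and *Mrpl53* (0.218), which have the limits given below. The genes moved together from mouse to mouse. Over 28 mice with group and batch means removed, the median Pearson correlation of the 2701 gene pairs was 0.233, against -0.001 for pairs of all tested genes, and 9.63% of the pairs, against 2.71%, exceeded 0.5. The points share their libraries, and the values are a description. A gene's median correlation with the others was highest for *Mrpl14* (0.414), *Mrpl20* (0.404), *Mrps12* (0.396) and *Mrpl40* (0.387) and lowest for *Mrpl35* (-0.092).

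The batches differed in many of the genes. Of the 74, 39 differed between batches by edgeR's quasi-likelihood test (adjusted p below 0.05), 23 higher and 16 lower in the second batch, where 46.2% of all genes tested were called, 22% higher and 24.3% lower. The median difference over the 74 was 0.00 on the log2 scale, and 71 of 74 lay within 0.5 of 0. *Mrpl12*, a gene of the ribosomal stalk, was higher in the second batch by 0.50, *Mrps24* by 0.44 and *Mrps28* by 0.39. *Mrpl23*, a gene of the exit tunnel, differed by -0.76, *Mrps6* by -0.34, *Mrps33* by -0.32 and *Mrpl1* by -0.30. The cohort of mice, the making of the libraries and their quantification cannot be told apart in these differences.

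*Mrpl28*, a bacterial-type large subunit gene on chromosome 17 (26123500 to 26126613, GRCm38), differed by 6.37 log2 units (SE 0.149). It had 1 to 18 counts per mouse in the first batch and 372 to 559 in the second. Its neighbour *Decr2* had 0 to 1 counts in the first batch and 519 to 647 in the second, whereas *Tmem8* (202 to 312 and 203 to 309) and *Axin1* (453 to 561 and 435 to 556) nearby had like counts in both. Among all tested genes, 46 differed between batches by more than 6 log2 units. Whether the same transcriptome index served both tables, whose lists of genes differ, was not tested, so that this difference cannot be read as one between the mice. In the fits to both batches, which had batch as a term, the second batch carried nearly all the counts of *Mrpl28*. In that batch it stood between 19.0 and 27.9 CPM in Water, 21.9 and 28.6 in Acute and 23.6 and 27.7 in Chronic mice, with overlap of all groups. *Mrpl23* shares an identical stretch of 540 bases with the pseudogene *Mrpl23-ps1*, which had more counts than the gene itself (mean 305 against 87.0), so the split of reads between them is uncertain. Counts were also uncertain for *Mrpl53*, which overlaps *Gm42688* over 695 bases on the same strand at like mean counts (179 and 173). In all, 27 of the 74 genes overlap another tested gene, 4 of them on the same strand, and whether counting used the strand is not given in the sources used here. The median fold changes below were therefore also taken over 72 genes, without *Mrpl28* and *Mrpl23*.

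*Mrpl11*, *Mrpl16*, *Mrpl43* and *Mrpl49*, all on chromosome 19, were listed in the table of the second batch alone and entered no fit. Their levels in Water (n = 6), Acute (n = 5) and Chronic (n = 6) mice were 24.4 ± 1.51, 24.9 ± 1.60 and 25.6 ± 0.848 CPM (mean ± SD) for *Mrpl11*. For *Mrpl16* they were 15.8 ± 0.713, 15.3 ± 1.37 and 16.0 ± 0.489, and for *Mrpl43* 26.4 ± 1.44, 25.4 ± 1.51 and 27.8 ± 1.78. *Mrpl49* stood at 32.9 ± 1.75, 34.0 ± 0.485 and 33.7 ± 1.68. The ranges of all groups overlapped for each of the 4 genes.

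The first comparison asked how these genes differed between mice with a single access to alcohol and mice with water alone. By the paper's account, Acute and Chronic mice kept their alcohol and water tubes until anesthesia on day 29, so access ran up to tissue collection. None of the 74 genes was called in Acute against Water mice (edgeR quasi-likelihood test, adjusted p from 0.407 to 0.998), as was none of the 16266 genes tested (0%). DESeq2 also called 0 of the 74, where it called 0.0553% of all genes with batch as a covariate and 0.184% after ComBat-seq batch adjustment. At an unadjusted p below 0.05, 6 genes were higher in Acute mice and 0 were lower, against 5.07% higher and 4.45% lower of all genes. Without the library Acute 5 there were 14 higher genes (6.504% of all genes in that fit), and without Water 6 there was 1 lower gene (3.99%). The 6 were the large subunit genes *Mrpl10*, *Mrpl2*, *Mrpl30*, *Mrpl58* and *Mrpl38*, and *Mrps30*. The log2 fold change was above 0 for 57 of 74 genes (77.0%), against 50.6% of all genes, with a median of 0.0449 (a 3.16% higher level), against 0.001 over all genes. The median over the 72 genes was 0.0452, and over the 74 it was 0.025 with the replicate block and offsets for GC content and transcript length together. Over the 74 genes, values ran from -0.12 (*Mrpl23*) to 0.18 (*Mrpl53*, SE 0.0988). The median was 0.0455 over the 45 *Mrpl* genes, 36 of them above 0, and 0.042 over the 29 *Mrps* genes, 21 of them above 0. Counts of genes describe a list whose members moved together within groups and are not independent. In bulk tissue, a lower number of cells of a type and less RNA per cell cannot be told apart.

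**Figure D2:**
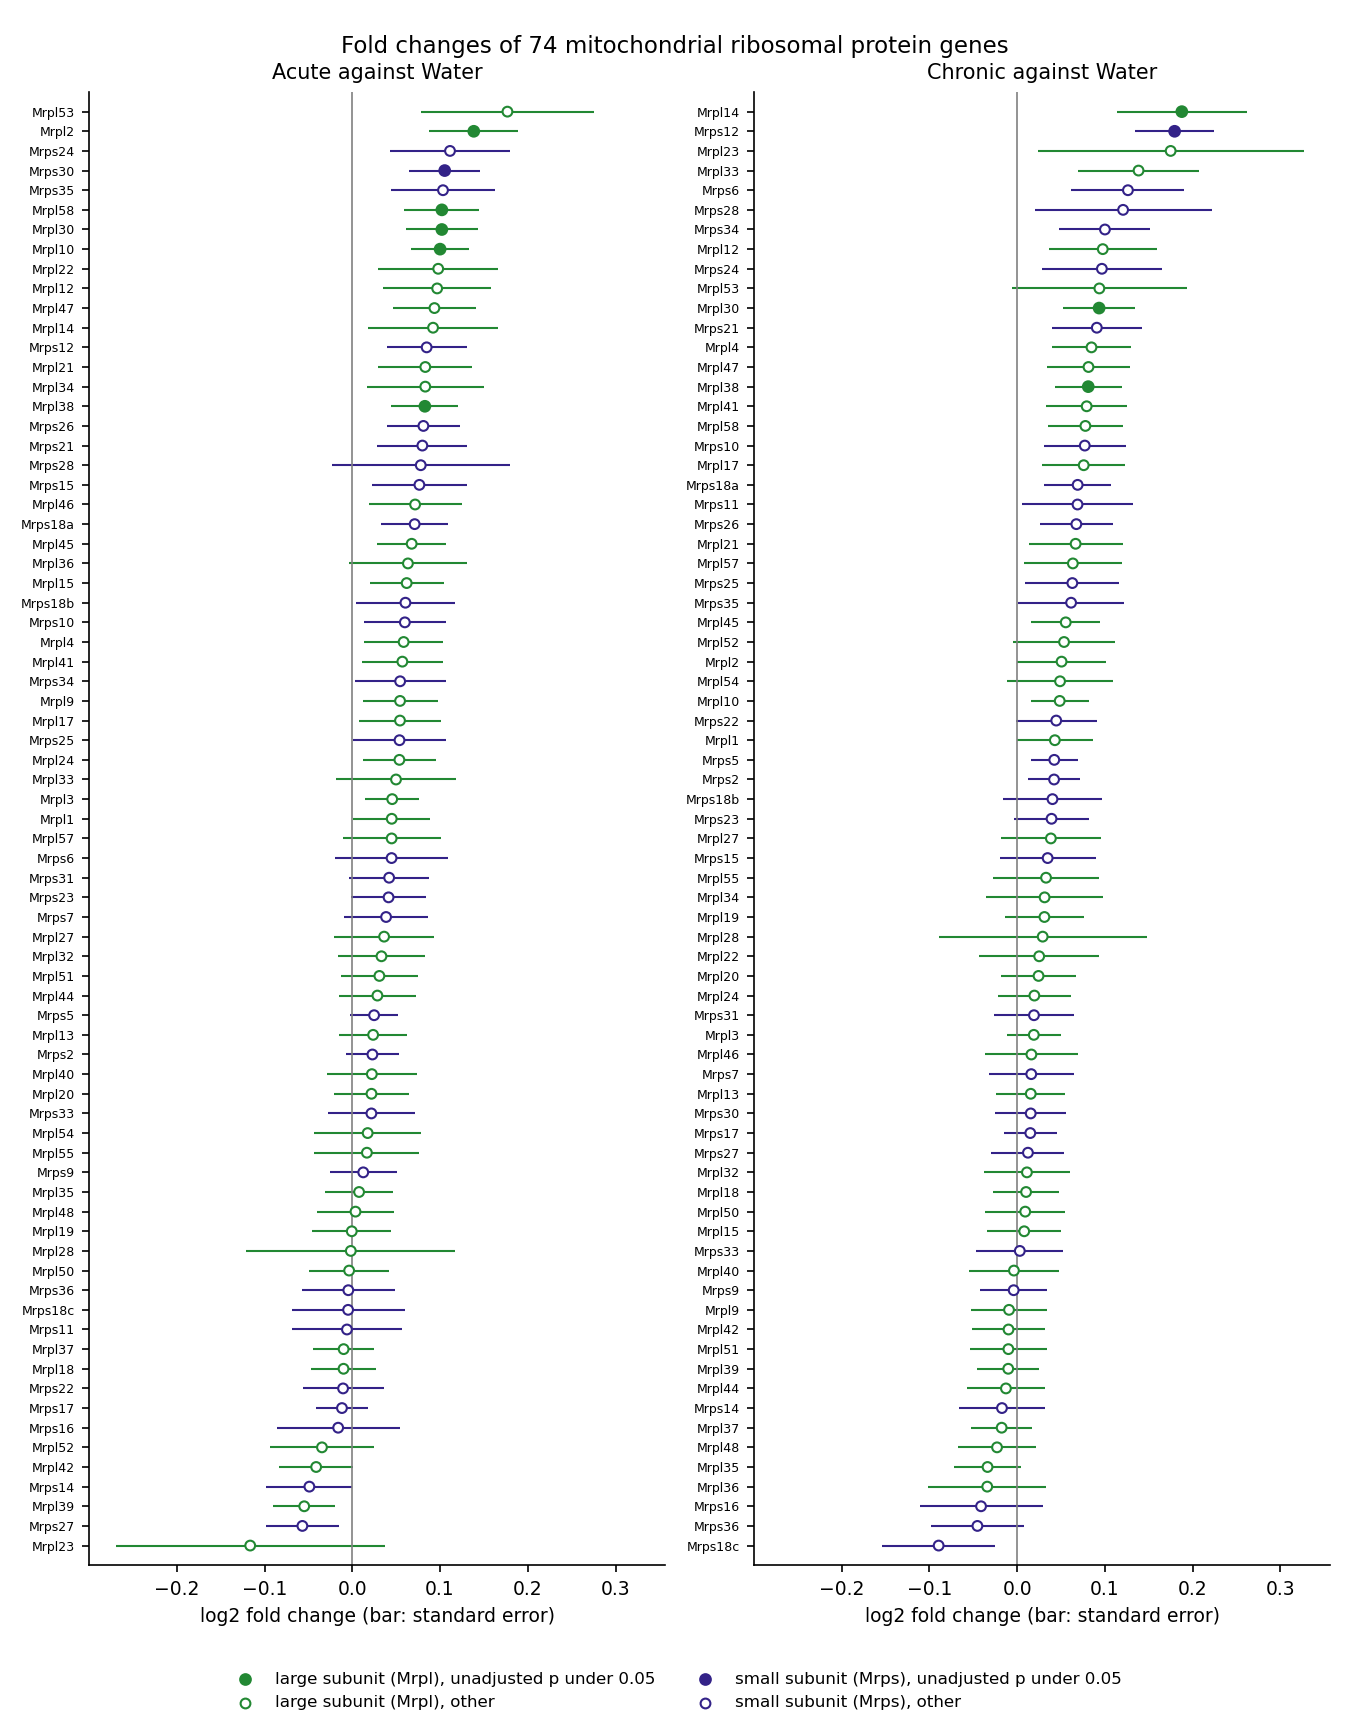
Log2 fold changes (horizontal axis, bars for the standard error) of the 74 genes in Acute (n = 9) and Chronic (n = 9) against Water mice (n = 10), from the edgeR fit with batch as a term. Filled points have an unadjusted p below 0.05, 6 in Acute and 4 in Chronic mice, all to the right of 0, and none passed the adjusted threshold.

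*Mrpl10* (ENSMUSG00000001445, chromosome 11, 97041560 to 97049213, plus strand, GRCm38), whose protein anchors the stalk that recruits translation factors, had the smallest p in this comparison. In the first batch its level was 44.4, 47.2, 49.6 and 47.1 CPM in Water mice and 51.3, 49.2, 50.5 and 50.1 CPM in Acute mice. In the second batch it was 43.9, 46.4, 43.3, 42.7, 47.1 and 44.8 CPM in Water mice and 49.3, 49.8, 48.8, 47.6 and 44.4 CPM in Acute mice. All Acute mice but number 5 lay above every Water mouse of their batch other than the Water mouse at 49.6 CPM, and the groups overlapped in both batches. The log2 fold change was 0.10 (SE 0.033, edgeR adjusted p = 0.407), with differences of 0.096 in the first and 0.10 in the second batch. The exact 2-sided permutation p within batches was 0.00186. Such exact p-values, here and below, are unadjusted and belong to genes picked by a small p.

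*Mrpl2* (chromosome 17, 46646229 to 46650139), a bacterial-type gene of the peptidyl transferase centre, stood at 13.8, 14.9, 16.1 and 16.1 CPM in the Water mice and at 16.5, 16.5, 18.3 and 17.4 CPM in the Acute mice of the first batch. In the second it was 18.5, 20.1, 19.5, 14.7, 19.2 and 15.8 CPM in Water and 19.1, 19.6, 19.4, 19.6 and 19.3 CPM in Acute mice. The groups did not overlap in the first batch, whereas in the second the Acute values lay within the range of Water. The log2 fold change was 0.14 (SE 0.051, edgeR adjusted p = 0.457, exact permutation p = 0.0138).

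*Mrpl30* (ENSMUSG00000026087, chromosome 1, 37890477 to 37898535, plus strand), another bacterial-type large subunit gene, was among the genes with an unadjusted p below 0.05 in both drinking groups. Its CPM in the first batch were 23.8, 27.4, 25.9 and 27.4 in Water, 26.6, 30.1, 31.3 and 27.3 in Acute and 29.6, 26.2 and 26.3 in Chronic mice. In the second they were 27.7, 28.6, 27.1, 26.3, 28.4 and 27.4 in Water, 27.96, 31.1, 29.8, 28.1 and 27.6 in Acute and 31.7, 26.6, 30.5, 30.7, 30.4 and 27.97 in Chronic mice. All groups overlapped. In Acute mice the log2 fold change was 0.10 (SE 0.041, edgeR adjusted p = 0.467, exact permutation p = 0.0151).

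*Mrpl58*, which encodes a peptidyl-tRNA hydrolase built into the large subunit, ranged from 25.8 to 32.3 CPM in Water (median 28.5) and from 29.04 to 32.7 in Acute mice (median 30.3). All 9 Acute mice lay above the Water mean of their batch, and the log2 fold change was 0.10 (SE 0.043, edgeR adjusted p = 0.477). For *Mrps30*, a mitochondria-specific gene, the CPM in the first batch were 23.7, 21.5, 23.2 and 22.6 in Water and 25.2, 23.5, 24.1 and 24.9 in Acute mice. In the second they were 19.1, 19.5, 22.7, 17.7, 19.9 and 20.2 in Water and 19.6, 22.7, 21.6, 22.9 and 20.1 in Acute mice. Its groups overlapped in both batches, by 1 Water mouse in the first, and the log2 fold change was 0.11 (SE 0.040, edgeR adjusted p = 0.462). *Mrps26* and *Mrpl47* came next, with log2 fold changes of 0.081 (SE 0.041) and 0.094 (SE 0.048) and edgeR adjusted p = 0.540 and 0.541. *Mrps26* ranged from 23.3 to 30.5 CPM in Water (median 27.4) and from 26.4 to 32.2 in Acute mice (median 27.96), and *Mrpl47* from 11.1 to 13.6 (median 12.03) and from 11.96 to 14.1 (median 13.5). The transcript of *Mrps26* holds a stretch that is nearly the same in transcripts of other genes, and its counts are uncertain to that extent.

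The second comparison asked the same of repeated alcohol access over a month. It used the same Water mice, so its values and those of Acute mice are not independent. Again 0 of the 74 genes were called in Chronic against Water mice by edgeR, against 0.0184% of all genes, and the smallest adjusted p was 0.181, for *Mrps12*. DESeq2 called *Mrps12* alone among the 74, with an adjusted p of 0.0428 with batch as a covariate (0.234% of all genes called) and of 0.0330 after ComBat-seq (0.54% called). At an unadjusted p below 0.05, 4 genes were higher (*Mrps12*, *Mrpl14*, *Mrpl30* and *Mrpl38*) and 0 were lower, against 4.81% and 5.65% of all genes. Without the library Chronic 37 there were 10 higher genes (6.02% of all genes in that fit), without Chronic 38 there were 8 (5.27%), and without Chronic 5 or without Water 1 there were 7 (4.70% and 4.46%). Without Chronic 1, Chronic 4 or Water 4 there were 2 (4.52%, 4.21% and 3.44%). The log2 fold change was above 0 for 59 of 74 genes (79.7%), against 51% of all genes, with a median of 0.039 (a 2.73% higher level) against 0.002 over all genes. That median was also 0.039 over the 72 genes, and over the 74 it was -0.014 in the first batch alone, 0.017 with offsets for GC content and transcript length, 0.022 without Water 4 and 0.026 without Chronic 1. Values ran from -0.089 (*Mrps18c*) to 0.19 (*Mrpl14*). The median was 0.031 over the *Mrpl* genes, 35 of 45 above 0, and 0.042 over the *Mrps* genes, 24 of 29 above 0.

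*Mrps12* (ENSMUSG00000045948, chromosome 7, 28739641 to 28741820, minus strand, GRCm38) encodes the protein next to the decoding site of the small subunit, the relative of the bacterial protein in which streptomycin resistance arises. In the first batch its level was 22.1, 21.9, 23.5 and 21.1 CPM in Water mice, 21.7, 22.3, 24.0 and 23.3 CPM in Acute mice and 22.6, 22.1 and 26.1 CPM in Chronic mice. In the second it was 26.7, 24.8, 26.7, 22.02, 28.2 and 22.7 CPM in Water mice, 25.9, 28.9, 27.1, 29.3 and 24.9 CPM in Acute mice and 30.3, 30.1, 29.1, 29.7, 27.8 and 30.1 CPM in Chronic mice. In the second batch all Chronic mice lay above all Water mice except that Water 5 (28.2) was above Chronic 5 (27.8), and in the first batch the groups overlapped. Means in the second batch were 25.2 ± 2.46 CPM in Water (SD, n = 6), 27.2 ± 1.88 in Acute (n = 5) and 29.5 ± 0.932 in Chronic mice (n = 6), against 22.2 ± 1.02 (n = 4), 22.8 ± 1.02 (n = 4) and 23.6 ± 2.17 (n = 3) in the first. In Chronic against Water mice the log2 fold change was 0.18 (SE 0.045, edgeR adjusted p = 0.181), with 8 of 9 Chronic mice above the Water mean of their batch. The exact 2-sided permutation p within batches, unadjusted, was 0.00111. Within batches the differences were 0.088 and 0.23. In Acute mice the log2 fold change was 0.085 (edgeR adjusted p = 0.567). Over the fits that left out 1 library each, the Chronic value ran from 0.16 to 0.20 and its adjusted p from 0.0927 to 0.378. *Sars2*, which starts head to head with it, had log2 fold changes of 0.011 in Acute and -0.0097 in Chronic mice.

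**Figure D3:**
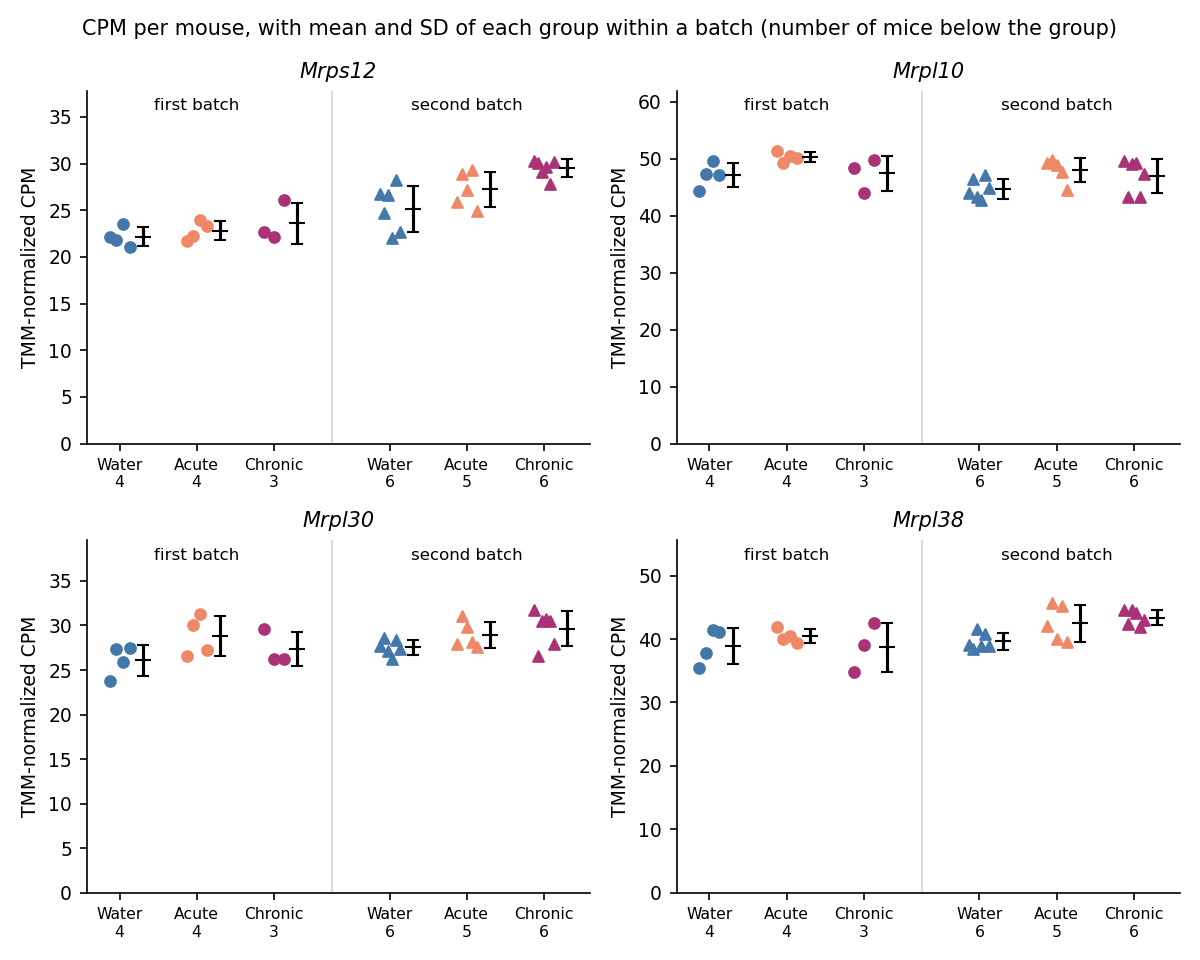
TMM-normalized CPM of *Mrps12*, *Mrpl10*, *Mrpl30* and *Mrpl38* in each mouse (vertical axis from 0) by group within the first (circles) and second batch (triangles), with bars for mean and SD. The 6 Chronic mice of the second batch lie between 27.8 and 30.3 CPM for *Mrps12*. Over both batches the groups overlap in every panel.

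*Mrpl14* (ENSMUSG00000023939, chromosome 17, 45686322 to 45698495, plus strand), a bacterial-type gene at the interface of the subunits, had CPM of 7.16, 7.95, 9.18 and 7.32 in Water, 8.76, 8.06, 7.71 and 8.18 in Acute and 8.17, 7.18 and 8.68 in Chronic mice of the first batch. In the second they were 7.52, 7.30, 7.53, 6.14, 6.70 and 5.52 in Water, 7.76, 7.12, 8.57, 7.30 and 6.13 in Acute and 8.81, 9.26, 8.33, 8.03, 6.97 and 8.19 in Chronic mice. All Chronic mice but number 5 lay above every Water mouse in the second batch, and the groups overlapped in the first. The log2 fold change in Chronic mice was 0.19 (SE 0.074, edgeR adjusted p = 0.350, exact permutation p = 0.0253), with differences of 0.022 and 0.28 within the batches. *Mrpl14* overlaps *Tmem63b*, a gene with a mean of 2641 counts on the other strand, so its counts are uncertain if strand was not used.

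*Mrpl30* had a log2 fold change of 0.093 in Chronic mice (SE 0.041, edgeR adjusted p = 0.414, exact permutation p = 0.0301). *Mrpl38* (ENSMUSG00000020775, chromosome 11, 116131817 to 116138868, minus strand), a mitochondria-specific large subunit gene, stood at 35.5, 37.8, 41.4 and 41.2 CPM in Water, 41.9, 40.0, 40.5 and 39.4 in Acute and 34.7, 39.0 and 42.5 in Chronic mice of the first batch. In the second batch it stood at 39.0, 38.4, 41.6, 38.9, 40.8 and 38.9 CPM in Water, 42.1, 45.7, 40.0, 45.2 and 39.5 in Acute and 44.5, 42.4, 44.5, 44.0, 41.9 and 43.0 in Chronic mice. There every Chronic mouse lay above every Water mouse, which was not so in the first batch. Its log2 fold changes were 0.083 in Acute (SE 0.038, edgeR adjusted p = 0.502) and 0.081 in Chronic mice (SE 0.038, edgeR adjusted p = 0.458), and in Chronic mice the batches gave -0.010 and 0.13.

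The next genes by p in Chronic mice were *Mrpl33*, *Mrps6*, *Mrps34* and *Mrpl4*, whose group ranges all overlapped. *Mrpl33*, a bacterial-type gene, ran from 7.66 to 12.1 CPM in Water (median 9.41) and from 9.50 to 11.8 in Chronic mice (median 9.96), with a log2 fold change of 0.14 (SE 0.069, edgeR adjusted p = 0.485) and within-batch differences of -0.042 and 0.25. *Mrps6* ran from 13.01 to 22.5 CPM (median 16.6) and from 14.7 to 22.5 (median 17.6), with 0.13 (SE 0.064, edgeR adjusted p = 0.502). *Mrps34*, a mitochondria-specific gene, ran from 18.9 to 27.9 (median 22.6) and from 19.0 to 29.9 (median 25.7), with 0.10 (SE 0.052, edgeR adjusted p = 0.506). *Mrpl4*, a gene of the exit tunnel, ran from 33.3 to 41.6 (median 38.5) and from 37.3 to 44.3 (median 40.7), with 0.085 (SE 0.045, edgeR adjusted p = 0.518) and -0.018 and 0.15 within the batches. *Mrps34* shares an identical stretch of 504 bases with *Mapk8ip3*, a gene on the other strand with a mean of 10255 counts. On the same strand, *Mrps34* overlaps *Nme3* (mean 113) and *Mrps6* overlaps *Slc5a3* (mean 969). Counts of both genes are uncertain to that extent.

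The third comparison set the drinking groups against each other. Of the 74 genes, 0 were called in Chronic against Acute mice by edgeR (adjusted p at least 0.998), as was 0% of all genes, and DESeq2 called none either. At an unadjusted p below 0.05, 0 were higher and 1, *Mrps30*, was lower in Chronic mice, against 1.95% and 2.5% of all genes. These counts hung on single libraries, as *Mrps30* was the 1 lower gene in the fit to all mice and the count was 0 without Acute 33, 36, 2, 3 or 4 or Chronic 37, 38, 2, 4, 5 or 6, and 2 without Acute 1. There was 1 higher gene without Acute 35, 36 or 2, Chronic 37, 38, 5 or 6 or Water 40, 2, 4, 5 or 6, and there were 2 without Acute 4. Over all fits without 1 mouse, 1.33% to 2.754% of all genes were higher and 1.90% to 3.26% lower, so that such counts lie near the background. The log2 fold change was above 0 for 33 of 74 (44.6%, against 49.4% of all genes), with a median of -0.005 (above 0 without Chronic 37, 38 or 5 or Acute 4, at most 0.0099), and ran from -0.098 (*Mrpl36*) to 0.29 (*Mrpl23*, SE 0.156). *Mrps30* had -0.090 (SE 0.041, exact permutation p = 0.0259), and *Mrps12* had 0.095 (SE 0.046, exact permutation p = 0.0368) with 7 of 9 Chronic mice above the Acute mean of their batch.

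The mean level of the 72 genes per mouse was then taken, as log2 CPM with the batch mean removed. The lowest, median and highest values were -0.13, -0.006 and 0.021 in Water mice, -0.10, 0.032 and 0.068 in Acute mice and -0.078, 0.031 and 0.12 in Chronic mice. The groups overlapped. The lowest mice were Water 4 (-0.13), Water 6 (-0.11) and Acute 5 (-0.10), all of the second batch, followed by Chronic 38 (-0.078) and Chronic 37 (-0.051) of the first, and the highest was Chronic 1 (0.12). Summed over the genes, Water mice had 1556 to 1714 CPM, Acute mice 1598 to 1761 and Chronic mice 1602 to 1828.

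**Figure D4:**
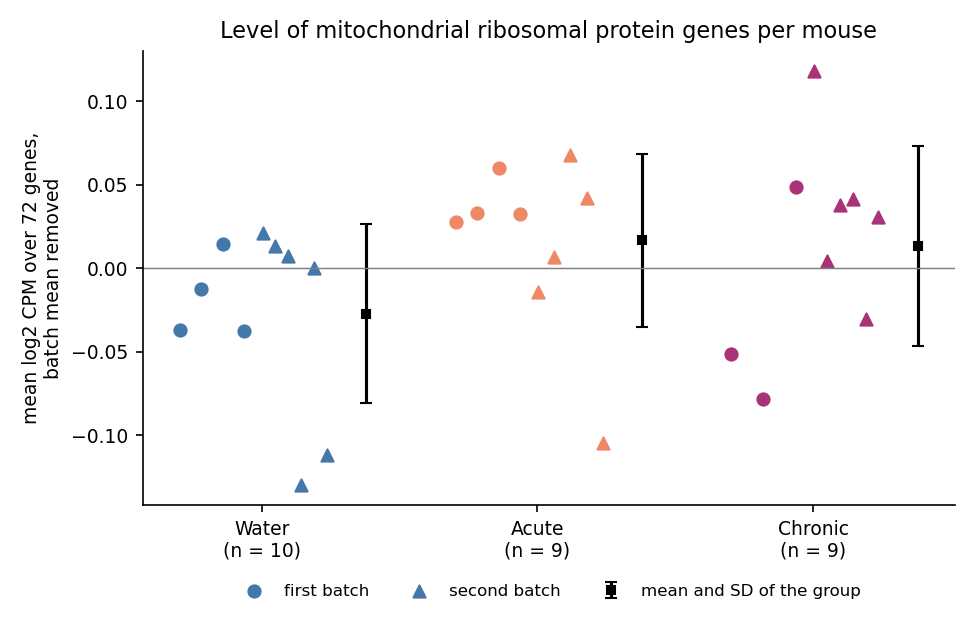
Mean log2 CPM of 72 genes in each mouse after removal of the batch mean (vertical axis), for the first (circles) and second batch (triangles) of each group, with squares and bars for the group's mean and SD. The groups overlap, and Water 4, Water 6 and Acute 5 lie lowest at -0.13, -0.11 and -0.10.

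Some of these mice also differed in how counts depended on transcript length and GC content over all genes. The slope of log2 CPM per doubling of length, relative to the other mice of the batch, was 0.056 in Water 4, 0.044 in Water 6 and 0.024 in Acute 5, 0.033 in Chronic 38 and 0.0078 in Chronic 37, and -0.067 in Chronic 1. The slope per 10 percentage points of GC was -0.10 in Water 4, -0.048 in Water 6, -0.018 in Acute 5, 0.031 in Chronic 38, -0.016 in Chronic 37 and 0.029 in Chronic 1. The length slope spanned -0.004 to 0.056 over the Water mice, -0.026 to 0.024 over the Acute mice and -0.067 to 0.033 over the Chronic mice. Transcripts of the 74 genes are short, with a median of 1221 bases against 2660 over all tested genes, and their GC content is close to the rest (51.1% against 50.3%). When smooth offsets for GC content and length were added to the fit, the median log2 fold change was 0.032 in Acute mice, with 53 of 74 above 0 against 51.9% of all genes, and it was 0.025, with 49 of 74 above 0, when the replicate block was added as well. In Chronic mice it was 0.017, less than before by more than 1.5 times, with 48 of 74 above 0 against 52.5% of all genes.

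The batches gave unlike pictures for Chronic mice. In Acute against Water mice the median difference of the 74 genes was 0.054 in the first batch (59 above 0) and 0.039 in the second (52 above 0). In Chronic against Water mice it was -0.012 in the first (33 above 0) and 0.064 in the second (66 above 0), while the share of all tested genes above 0 was 50.2% and 50.4%. In Chronic against Acute mice it was -0.062 (18 above 0) and 0.036 (54 above 0). The first batch held 3 Chronic mice and the second 6. The difference between batches was tested per gene with an interaction term, and 0 of the 74 genes passed the adjusted threshold for Acute (0% of all genes) or Chronic mice (0.00615%). At an unadjusted p below 0.05 there was 1 gene for Acute (*Mrps9*, a difference of -0.15 between the batches), against 4.13% of all genes, and there were 4 for Chronic mice, against 6.15%. The 4 were *Mrpl50* (0.23), *Mrps14* (0.20), *Mrps18c* (0.27) and *Mrpl33* (0.29), with edgeR adjusted p from 0.774 to 0.802.

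**Figure D5:**
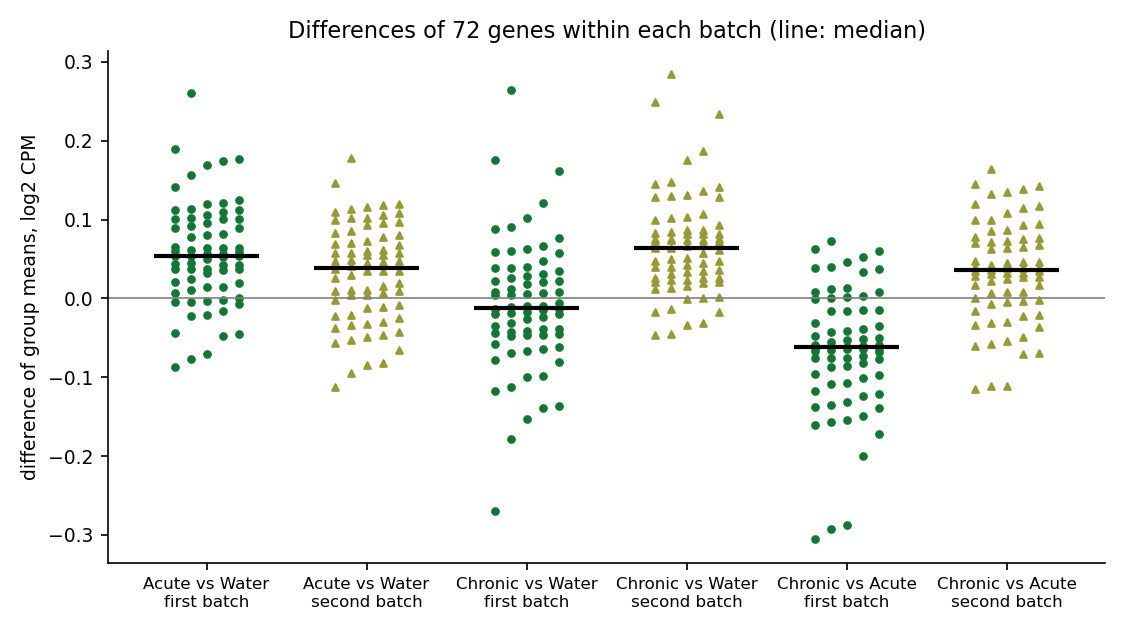
Difference of group means in log2 CPM (vertical axis) for each of 72 genes within each batch and comparison, with a line at the median. The median lies above 0 in both batches for Acute against Water (0.054 and 0.039), and at -0.012 in the first and 0.064 in the second batch for Chronic against Water.

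The 3 *Mrps18* paralogs, of which *Mrps18c* is the closest relative of the bacterial gene, differed in level and gave no call. In Water mice *Mrps18a* stood at 43.8 ± 4.09 CPM per kilobase (SD, n = 10), *Mrps18b* at 19.0 ± 1.35 and *Mrps18c* at 18.7 ± 1.60. Log2 fold changes in Acute and Chronic mice were 0.071 and 0.069 for *Mrps18a* (edgeR adjusted p = 0.567 and 0.535) and 0.060 and 0.040 for *Mrps18b* (SE 0.056 in both). For *Mrps18c* they were -0.005 and -0.089 (SE 0.064 and 0.065, edgeR adjusted p = 0.659 in Chronic mice).

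Genes that work with these proteins were taken from fixed lists, and no gene of any list was called by edgeR. Of the 151 listed genes and markers other than cytosolic ribosomal proteins, DESeq2 called 0 with batch as a covariate and, after ComBat-seq, 1 in Acute mice (*Nts*, a neuropeptide gene of the central amygdala). Of 5 subunits of the same ribosome with other symbols, 1 was higher at an unadjusted p below 0.05 in each drinking group and 0 were lower, where 5.07% of all genes were higher and 4.45% lower in Acute mice and 4.81% and 5.65% in Chronic mice. This was *Aurkaip1*, a small subunit gene, with log2 fold changes of 0.12 in Acute (SE 0.045, edgeR adjusted p = 0.462) and 0.13 in Chronic mice (adjusted p = 0.292). Of 22 assembly factors, 1 (*Ngrn*, 0.070) was higher in Acute mice, a share near the 5.07% of all genes, and 0 in Chronic mice, with medians of 0.028 and 0.026. Of 14 mitochondrial translation factors, 0 moved at that threshold in Acute mice and 2 were lower in Chronic mice (5.65% of all genes). These were *Gfm1*, the elongation factor that moves the ribosome along, with -0.083 (edgeR adjusted p = 0.362), and *Lrpprc*, which stabilizes mitochondrial messenger RNAs, with -0.067 (adjusted p = 0.439). The medians of the translation factors were 0.004 and 0.003.

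The mitochondrial genome's own RNAs gave no such gene in the comparisons with Water. The 13 mitochondrial messenger RNAs had medians of 0.026 in Acute and -0.019 in Chronic mice, and the 2 ribosomal RNAs had 0.017 and 0.031, in libraries prepared by mRNA enrichment with rRNA removal. Among 10 genes of mitochondrial DNA transcription, 1 was higher in Acute mice at an unadjusted p below 0.05, *Tfam*, which packages the mitochondrial genome and starts its transcription, with 0.097 (edgeR adjusted p = 0.477) and 0.063 in Chronic mice, where 5.07% of all genes were higher in Acute mice. Among 8 regulators of mitochondrial biogenesis, the coactivator gene *Ppargc1b* had the smallest p, with log2 fold changes of -0.26 (SE 0.092, edgeR adjusted p = 0.430) in Acute and -0.22 (adjusted p = 0.391) in Chronic mice. It was lower at an unadjusted p below 0.05 in both, as were 4.45% and 5.65% of all genes. The 88 cytosolic ribosomal protein genes had medians of 0.074 in Acute and 0.075 in Chronic mice, with 84 and 81 above 0 (50.6% and 51% of all genes) and 18 and 17 higher at an unadjusted p below 0.05 (5.07% and 4.81% of all genes). Among the marker lists, medians in Acute and Chronic mice were 0.12 and 0.049 for oligodendrocytes, 0.040 and 0.031 for neurons, 0.25 and 0.11 for the central amygdala, 0.014 and -0.31 for the striatum, -0.11 and 0.012 for pallial excitatory neurons and -0.088 and -0.13 for the choroid plexus. Those of astrocytes, microglia, oligodendrocyte precursors and endothelial cells lay within 0.02 of 0.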

How the data were processed

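RNA of amygdala micropunches was sequenced from 28 separate mice, so that p-values measure the spread between these mice. The authors quantified reads with Salmon 0.14.1 on a GRCm38/mm10 transcriptome after FastQC 0.11.8 and summarized them by gene with tximport and GENCODE M21, and deposited estimated counts per gene, rounded to whole numbers, in 1 table per batch, before their ComBat-seq adjustment. Which annotation each table used was not tested beyond its gene list. Depth ranged from 20004380 to 22569562 counts per mouse.

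The 49477 genes of both tables were joined (574 genes were in the first and 1596 in the second alone) and 16266 with a mean of at least 10 counts were kept. The quasi-likelihood test of edgeR 4.0.16 (R 4.3.3) was fitted to all 28 mice with group and batch, TMM scaling and Benjamini-Hochberg adjustment over all genes, and a gene was called at an adjusted p below 0.05. Log2 CPM used a prior count of 2. Exact 2-sided permutation tests regrouped mice within batches (smallest possible p 3.09e-05 against Water and 6.18e-05 between drinking groups). Their p-values are unadjusted and are printed for genes picked by a small p in the same counts, so they are no independent evidence. Genes named are the 8 with the smallest p in each comparison with Water, the 3 with the smallest p in Chronic against Acute mice and in the interaction, the 5 highest and 5 lowest by CPM per kilobase, the 3 most and 3 least variable, the *Mrps18* paralogs, and ends of ranges. Lengths are means over protein-coding transcripts. Alternatives were DESeq2 1.42.0, ComBat-seq (sva 3.50.0) with DESeq2, DESeq2-type size factors (RLE) in edgeR, no count filter, a minimum mean of 100, single batches, fits to 2 groups, a replicate block, GC and length offsets, and leaving out each mouse. The edgeR fit was tested on simulated counts. Of 50 genes changed 1.25-fold, it called 52% in Acute and 56% in Chronic against Water mice, and 82% of those changed 1.5-fold in each. Among unchanged genes it made 17 and 19 calls. Changes smaller than 1.25-fold were not simulated. Replicate pairs differed by more than sampling noise (chi-square per gene 3.89 to 20.5). Genes and lists were chosen with earlier results of these data known, and the 72-gene set after the counts were seen.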

Additional observations from a re-analysis of the deposited data

Results flagged for a closer look

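Gaps between the highest or lowest mouse and the nearest of its group, as a share of the group's range, were compared with Dixon's 95% critical value (0.493 for 9 mice, 0.466 for 10) on log2 CPM with the batch mean removed. Of 102 groups tested (33 named genes and the mean level, in 3 groups each), 9 exceeded it, and chance gives about 1 in 20. Acute 5 gave 3 of the 9, as the lowest mouse for *Mrpl10* (gap share 0.544, value -0.062 against 0.027 for the nearest), for *Mrpl41* (0.553, value -0.20) and for the mean level of 72 genes (0.522, value -0.10 against -0.014). In Chronic mice, Chronic 38 was lowest for *Mrpl2* (0.522, value -0.22), Chronic 37 for *Mrpl38* (0.582, value -0.18) and Chronic 39 for *Mrpl28* (0.658, value -0.63), a gene with few counts in that batch. Chronic 1 was highest for *Mrpl41* (0.534, value 0.26). In Water mice, Water 42 was lowest for *Mrpl23* (0.612, value -0.61) and Water 40 for *Mrps5* (0.516, value -0.10). None of the named genes passed an adjusted test of a difference between batches in its response. Causes were not tested.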

How the results depend on the processing

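No gene of the 74 was called in any comparison by any edgeR fit, including every fit without 1 mouse. In Chronic against Water mice, 1 gene (*Mrps12*) was called by DESeq2 and 1 by DESeq2 after ComBat-seq. Genes with an unadjusted p below 0.05 in Acute against Water mice numbered 6 higher and 0 lower, with 2 higher in the first batch alone (3.60% of all genes), 2 higher in the second alone (2.39%) and 1 lower with the replicate block and offsets together (2.95%). In Chronic against Water mice the 4 higher became 0 in the first batch alone (1.86% of all genes), where 1 was lower (1.65%), and 10 in the second (6.504%). In Chronic against Acute mice, the 0 higher became 1 with DESeq2, ComBat-seq, RLE scaling, the minimum mean of 100, the 2 groups alone, the block, the offsets, and block and offsets together (1.80% to 2.47% of all genes), and 4 in the second batch (2.16%). The 1 lower became 0 without a count filter (2.38% of all genes), 4 in the first batch (2.39%), 0 in the second (1.83%), and 2 with offsets, without or with the block (2.37% and 2.45%), and the median was -0.061 in the first batch alone. In the first batch alone, Chronic values turned below 0 for *Mrpl38* (-0.0087), *Mrpl33* (-0.040) and *Mrpl4* (-0.018). Single batches have fewer mice. The causes of the changes, in single batches and elsewhere, were not tested. Leaving out each mouse gave 5 to 14 higher and 0 to 1 lower genes in Acute, 2 to 10 higher and 0 lower in Chronic mice, and 0 to 2 higher and 0 to 2 lower in Chronic against Acute mice. Medians then ran from 0.031 to 0.062, from 0.022 to 0.045 and from -0.019 to 0.0099, and genes above 0 from 56 to 64, from 54 to 67 and from 24 to 46. Acute lower became 1 without Water 6. Of 740 single-gene values under the alternatives, 735 kept direction and side of the threshold, 2 passed it and 3 changed sign. None of the 19 single-gene results behind them was called in the main fit, so keeping the side meant staying uncalled. Most of the values come from fits without 1 mouse, which share nearly all their data, so the count is no measure of robustness. Replicate numbers gave no sign of pairing in the second batch: same-numbered mice correlated from -0.346 to 0.338 (median -0.008 over 16 pairs), different-numbered from -0.364 to 0.422 (0.023 over 80). Such values cannot show that same-numbered mice shared nothing, and the labels do not say what the numbers stand for. With the replicate block, 5 genes were higher in Acute (median 0.041) and 3 in Chronic mice (median 0.039), and 1 was higher and 1 lower in Chronic against Acute mice.

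Counting error alone, taken from the mean count on the log2 scale, ranged from 0.040 to 0.16 over the 74 genes (median 0.069), against a median SD between mice of 0.0998, so depth limits the single genes as well. Standard errors of their log2 fold changes against Water ran from 0.027 to 0.15, beside medians of 0.0449 and 0.039. *Mrpl28*, *Mrpl23* and *Mrpl53* are limited by quantification, and strand use is not given in the sources used here. If strand was not used, counts are also uncertain for named genes that share identical stretches with genes on the other strand. Examples are *Mrps34* with *Mapk8ip3* (504 bases, mean 10255 counts), *Mrps25* with *Nr2c2* (3533 bases, 2046) and *Mrpl19* with *Gcfc2* (1967 bases, 141).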

Other observations

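The neighbours that start head to head with 17 of the genes were tested as genes of their own. Their median log2 fold change was 0.001 in Acute mice (10 of 17 above 0) and 0.044 in Chronic mice (13 of 17 above 0), where 50.6% and 51% of all genes were above 0. At an unadjusted p below 0.05, 2 differed in each comparison, beside 5.07% higher and 4.45% lower of all genes in Acute and 4.81% and 5.65% in Chronic mice, and none was called by edgeR. Gene *Zfp189*, a zinc finger gene that starts 83 bases from *Mrpl50*, was among them, with -0.28 in Acute and -0.29 in Chronic mice (edgeR adjusted p = 0.222 in Chronic mice), and it was picked after its values were seen. *Mrpl50* itself had differences of -0.14 in the first and 0.093 in the second batch in Chronic against Water mice.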
